A study of Mus musculus with 42 samples.

Results

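The naive pluripotency transcription factors are a set of transcriptional regulators that mark mouse embryonic stem cells (ESCs) and the inner cell mass. Here 10 of them, Nanog, Klf2, Klf4, Klf5, Esrrb, Tfcp2l1, Prdm14, Nr0b1, Zfp42 and Tbx3, were followed through differentiation of mouse ESCs to anterior definitive endoderm (ADE). Members were chosen by name, with earlier results of these data known, and each was found on the arrays through the RefSeq accession of its probes. All 10 members were found, of 23285 genes that the arrays read, and none was lost to a filter. A gene with several probes was read from the probe with the highest mean over all arrays.

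In ESCs these factors form an interconnected circuit around OCT4 and SOX2. LIF signalling through STAT3 feeds it by way of Klf4, Tfcp2l1 and Gbx2, and the circuit is taken apart when cells leave the naive state for the post-implantation epiblast. NANOG is a homeodomain protein that limits the exit from pluripotency, and KLF2, KLF4 and KLF5 are zinc finger factors with overlapping targets. ESRRB is an orphan nuclear receptor, NR0B1 (DAX1) is a nuclear receptor without the usual DNA-binding domain that acts mostly as a repressor, and TFCP2L1 is a grainyhead-related factor. PRDM14 represses FGF signalling and DNA methylation genes, ZFP42 (REX1) is a zinc finger protein used as a reporter of the naive state, and TBX3 is a T-box factor that is also known for roles in endoderm and mesoderm.

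The cells were a mouse ESC line with GFP in the Gsc locus and RedStar in the Hhex locus, so that G stands for the GSC reporter and H for the HHEX reporter. There were 33 untreated arrays, 3 each of ESCs grown with LIF, unsorted d2 cells (d, day of differentiation) and 9 sorted populations, which were d3 G- and G+, d4 G- and G+, d5 G-, Glow and Ghigh, and d6 G+H- and G+H+. A second series of 9 arrays held d6 cultures of the same line, 3 of each regimen, whose labels name no sort. This series had slides, a scan date and a protocol of its own, so levels of the 2 series also differ by these. Control had the solvent DMSO throughout, ADE_EPZ had DMSO before and 2.5 µM EPZ6438 during differentiation, and ES_EPZ had 2.5 µM EPZ6438 before and DMSO during it. EPZ6438 inhibits EZH2, the methyltransferase of Polycomb repressive complex 2 (PRC2). All groups share 1 reporter line, and a fall in a population can come from fewer cells that hold an RNA or from less RNA per cell, which cannot be told apart in bulk RNA.

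Levels below are log2 intensities after background correction and quantile normalisation, given as mean ± SD over 3 arrays, and they order the groups within a gene but not the genes among each other. Differences are log2 differences between group means ± SE from a limma fit over all 42 arrays, and adjusted p is limma's p after Benjamini-Hochberg adjustment over all probes. A gene was called where limma gave it an adjusted p of 0.01 or less together with a difference of 1.5 or more in size. The sort markers followed the labels: Gsc averaged 4.96 ± 0.20 in ESCs, 8.23 ± 0.46 for d3 G- and 11.78 ± 0.44 for d3 G+ cells. Hhex was at 12.17 ± 0.43 for d6 G+H- and 12.63 ± 0.19 for d6 G+H+ cells, and the highest G+H- array was just below the lowest G+H+ array. Of 7 definitive endoderm markers, 7 were called higher in d6 G+H+ cells than in ESCs. In the untreated series replicate 3 was on other slides, scanned on another date, than replicates 1 and 2, and at d5 and d6 this replicate stood apart for several members. Values without it are given where they matter. Over the 122 calls of members in comparisons of 2 groups, 246 of 247 differences taken within one scan or slide had the sign of the whole fit. These differences use parts of the arrays that gave the calls, so the agreement is no independent check.

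Promoter sequence was at hand for 7 of the 10 members, as 300 bases from 250 before to 50 after a transcription start (RefSeq, GRCm38.p6). Printed here are the promoters of 4 members: Nanog, which was first called lower than in ESCs in d3 G+ cells, Zfp42, which was called lower at d2 and again in d3 G+ cells, and Tfcp2l1 and Nr0b1, which were called higher again at d6. They lie at chr6:122707239-122707538 on the + strand, chr8:43306960-43307259 on the - strand, chr1:118627695-118627994 on the + strand and chrX:86191525-86191824 on the + strand, and each is written 5′ to 3′ on the strand of its gene. Capitals mark matches on either strand to the KLF element CCNCNCCC and the octamer TTTGCAT bound by OCT4, which did not overlap each other.
Nanog: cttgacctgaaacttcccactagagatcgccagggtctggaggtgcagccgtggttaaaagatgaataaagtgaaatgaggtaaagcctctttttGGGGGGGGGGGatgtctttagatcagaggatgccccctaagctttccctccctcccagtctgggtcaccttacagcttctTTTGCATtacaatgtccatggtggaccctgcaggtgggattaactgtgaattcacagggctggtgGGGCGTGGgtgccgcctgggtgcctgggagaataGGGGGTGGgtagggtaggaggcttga
Zfp42: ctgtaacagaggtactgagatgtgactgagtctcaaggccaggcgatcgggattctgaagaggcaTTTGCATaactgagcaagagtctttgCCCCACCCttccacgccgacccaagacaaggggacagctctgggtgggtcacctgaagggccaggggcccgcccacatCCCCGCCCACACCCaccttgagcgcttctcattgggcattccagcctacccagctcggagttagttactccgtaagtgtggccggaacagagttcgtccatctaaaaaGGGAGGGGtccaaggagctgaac
Tfcp2l1: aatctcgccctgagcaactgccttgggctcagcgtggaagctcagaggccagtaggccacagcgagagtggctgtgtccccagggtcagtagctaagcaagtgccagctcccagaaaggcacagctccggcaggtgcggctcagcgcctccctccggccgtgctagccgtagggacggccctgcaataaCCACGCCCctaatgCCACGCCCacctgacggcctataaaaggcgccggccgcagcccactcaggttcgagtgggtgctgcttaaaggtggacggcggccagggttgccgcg
Nr0b1: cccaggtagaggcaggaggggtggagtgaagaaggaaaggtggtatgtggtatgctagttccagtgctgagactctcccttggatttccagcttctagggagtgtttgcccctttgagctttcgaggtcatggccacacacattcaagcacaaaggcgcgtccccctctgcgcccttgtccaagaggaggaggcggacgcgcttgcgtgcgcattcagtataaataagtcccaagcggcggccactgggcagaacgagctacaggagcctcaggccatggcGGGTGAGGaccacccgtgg

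A KLF element was in all 7 members with a promoter entry, but also in 49.5% of all 32851 promoters of this length. The octamer was in 2 of the 7, Nanog and Zfp42, against 4.63% of all promoters. The ESRRB element AAGGTCA, the STAT3 element TTCCNGGAA and the TFCP2L1 element CCAGNNNNNNCCAG, searched on both strands, had no match in these windows, against 4.72%, 1.15% and 3.44% of all promoters. A match describes the letters only.

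The first question is when the factors leave. Between ESCs and d2 most of the set had fallen. In d2 cells 8 of the 10 members were called lower than in ESCs (Klf2, Klf4, Klf5, Esrrb, Tfcp2l1, Prdm14, Nr0b1 and Zfp42), where 1.26% of all genes were. With each array scaled by its 75th percentile in place of quantile normalisation 5 were called, since Nr0b1 was lost, and also Klf2 and Prdm14, at adjusted p = 0.019 and 0.027 from limma. The median difference over the members was -2.46, against 0.021 over all genes. The deepest change was that of Klf4, a direct target of LIF and STAT3. Its arrays read 12.26, 11.72 and 12.14 in ESCs and 8.51, 7.66 and 7.88 at d2, a change of -4.03 ± 0.41 (adjusted p = 3.4e-08). Klf4 then stayed low, with group means between 7.61 and 9.08 in all later untreated populations. Klf5 fell by less, from 12.55 ± 0.21 to 10.04 ± 0.32, a change of -2.51 ± 0.23 (adjusted p = 4.8e-09).

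Esrrb dropped from 14.78, 14.09 and 14.73 to 11.64, 10.96 and 11.24, a change of -3.25 ± 0.56 (adjusted p = 1.7e-04). Changes at d2 were of a like size for Tfcp2l1, -2.74 ± 0.35 (adjusted p = 2.0e-06), and Klf2, -2.25 ± 0.42 (adjusted p = 4.7e-04). Every ESC array stood above every d2 array for each of the 10 members, Nanog and Tbx3 included. Nanog nevertheless differed by only -1.13 ± 0.48 (adjusted p = 0.20) and was not called. Tbx3 differed by -2.20 ± 0.71 (adjusted p = 0.056) and missed the threshold too. The call of Nr0b1, at -2.65 ± 0.65 (adjusted p = 0.0088), was lost whenever any 1 of the 6 arrays was left out, with the difference between -2.92 and -2.39. Of 8 LIF pathway genes 3 were called lower at d2, Socs3 by -4.14 and Stat3 by -2.37 among them, and 0 higher. Of 10 core pluripotency genes 1 was called lower at d2, Tcl1 by -2.94, while Pou5f1 stood at 13.59 ± 0.62 in ESCs and 13.62 ± 0.70 at d2. The median difference of that list was 0.12 at d2. Of 10 formative and primed epiblast genes 2 were called higher, Lef1 by 2.86 and Sox3 by 2.07.

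**Figure D1:**
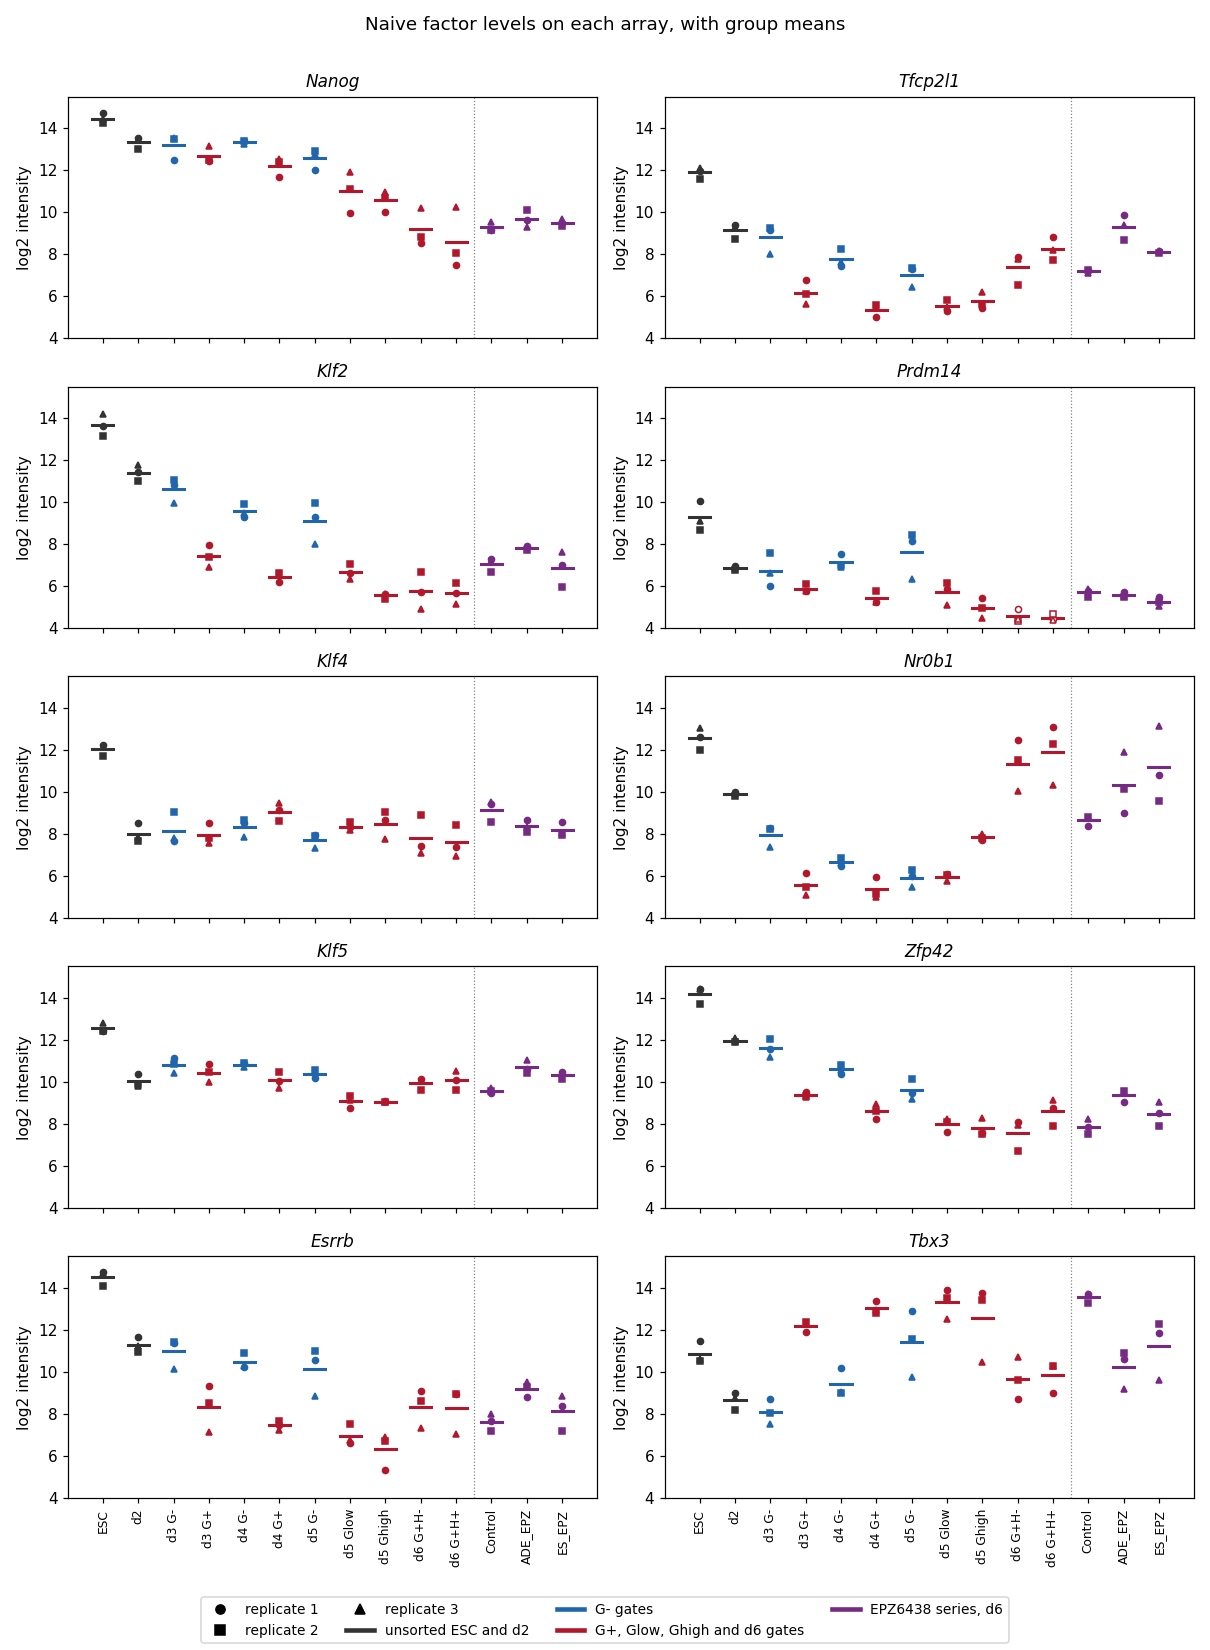
Log2 intensity of each factor (y axis) in the 14 groups (x axis), with 1 symbol per array (circle, square and triangle for replicates 1, 2 and 3) and a bar for the group mean. Open symbols mark groups in which no array was well above background, which is the case for Prdm14 in the sorted d6 G+H- and G+H+ populations. All 10 means step down from ESCs to d2, Klf2, Esrrb, Tfcp2l1 and Zfp42 are lower again in the red d3 and d4 G+ gates, where Tbx3 is higher, and Nr0b1 in the sorted d6 populations lies between 10.04 and 13.10.

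The second step came at d3, in the GSC-positive cells. From d2 to d3 G+ cells 5 members were called lower, against 2.61% of all genes: Klf2, Esrrb, Tfcp2l1, Nr0b1 and Zfp42. Tbx3 was called higher, as were 2.8% of all genes. From d2 to d3 G- cells 0 members were called in either direction by limma, where 1.22% of all genes were, and 2 members had an unadjusted p under 0.05. Of these Nr0b1 also fell in G- cells, from 9.91 ± 0.11 to 7.98 ± 0.51 with no overlap, and Klf5 rose from 10.04 ± 0.32 to 10.81 ± 0.38. The 2 comparisons share the d2 arrays, and the gates themselves were therefore compared. Against d3 G- cells, d3 G+ cells had 4 members called lower (Klf2, Esrrb, Tfcp2l1 and Zfp42; 1.04% of all genes) and Tbx3 called higher (0.644%).

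Klf2 had the largest fall between the gates. It read 10.82, 11.07 and 9.96 for d3 G- and 7.98, 7.38 and 6.90 for d3 G+ cells, which is 9.16-fold lower in G+ cells, at -3.19 ± 0.42 (adjusted p = 3.0e-06). At d4 the gates stood at 9.29, 9.93 and 9.49 against 6.22, 6.63 and 6.52, a difference of -3.11 ± 0.42 (adjusted p = 7.3e-06). No array of one gate reached the range of the other on either day. Zfp42 read 11.57, 12.03 and 11.20 for d3 G- and 9.51, 9.35 and 9.28 for d3 G+ cells, with a difference of -2.22 ± 0.34 (adjusted p = 3.2e-05). Tfcp2l1 differed by -2.64 ± 0.35 (adjusted p = 4.5e-06), with 8.81 ± 0.68 in the G- gate and 6.18 ± 0.57 in the G+ gate, and it missed the call in a limma fit to these 2 groups alone (adjusted p = 0.013). For Esrrb the arrays read 11.36, 11.44 and 10.13 for d3 G- and 9.32, 8.52 and 7.12 for d3 G+ cells, so replicate 3 was the lowest array of both gates. Its difference was -2.66 ± 0.56 (adjusted p = 0.0023), and the call was lost without d3 G- replicate 1, without d3 G- replicate 2 or without d3 G+ replicate 3, at differences of -2.47, -2.43 and -2.06, and in the fit to these 2 groups alone.

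Nr0b1 was 7.98 ± 0.51 for d3 G- and 5.58 ± 0.53 for d3 G+ cells and was not called, at -2.39 ± 0.65 (adjusted p = 0.025). Replicate numbers were taken to pair the arrays of these gates. With the replicate as a block the same difference had a limma adjusted p of 0.0024, which is past the threshold. At d4 the same 4 members were called lower in G+ cells, and Prdm14 with them (1.36% of all genes were lower), and Tbx3 was again called higher (0.752%). Prdm14 read 7.52, 7.01 and 6.90 in d4 G- and 5.24, 5.77 and 5.27 in d4 G+ cells, of which 2 of 3 arrays were well above background, and its difference was -1.72 ± 0.38 (adjusted p = 0.0033). That call was lost without d4 G- replicate 1 or 2 and without d4 G+ replicate 1 or 3, at differences from -1.78 to -1.53, and also with a normexp offset of 50 (-1.13) or without background correction (-1.31). Klf4 and Klf5 had no call between these gates. Klf4 differed by -0.19 ± 0.41 at d3 (95% interval -1.03 to 0.65) and 0.73 ± 0.41 at d4 (-0.11 to 1.57), and Klf5 by -0.36 ± 0.23 and -0.75 ± 0.23. For Nanog the differences were -0.49 ± 0.48 and -1.13 ± 0.48, with adjusted p = 0.89 and 0.24.

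Within a gate no member was called from day to day. By limma 0 of 10 were called between d3 and d4 in G- cells (0.0129% of all genes), between d3 and d4 in G+ cells (0.0387%) or between d4 and d5 in G- cells (0.0258%), and 3, 4 and 3 members had an unadjusted p under 0.05. Tested as an interaction in limma, the gap between the gates changed from d3 to d4 for 0 members (0% of all genes), and 0 had an unadjusted p under 0.05. The G- cells held Klf2 at 10.62, 9.57 and 9.09 and Esrrb at 10.98, 10.47 and 10.14 on d3, d4 and d5, below ESCs on each day. Zfp42 stood at 11.60, 10.60 and 9.61 in G- cells, with 9 of 9 array pairs lower at each step, at limma adjusted p = 0.54 and 0.32. Nr0b1 means were 7.98, 6.66 and 5.93, and those of Tbx3 8.09, 9.42 and 11.42. In d3 G- cells 9 members were called lower than in ESCs (1.23% of all genes), and in d3 G+ and d4 G+ cells 9 were (3.49% and 4.11%), with Tbx3 called in the first and Nanog in the other 2.

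At d5, Klf2, Esrrb, Prdm14 and Zfp42 were called lower in Glow than in G- cells (0.58% of all genes), and these and Nanog in Ghigh cells (1.48%). Esrrb had the largest difference between d5 Ghigh and G- cells, -3.82 ± 0.56 (adjusted p = 1.7e-05), with arrays at 10.59, 10.97 and 8.86 in G- and 5.35, 6.72 and 6.90 in Ghigh cells. In G- cells replicate 3 was the lowest array for every member but Nanog and Klf5, and it read 6.35 for Prdm14 beside 8.15 and 8.42. Within replicate 3 the Ghigh to G- differences of Esrrb, Klf2, Prdm14, Zfp42 and Nanog were -1.97, -2.35, -1.88, -0.89 and -1.81. Within replicates 1 and 2 they were -4.75, -4.10, -3.08, -2.28 and -2.12. The Glow to G- differences of the first 4 were -2.12, -1.67, -1.25 and -0.95 within replicate 3. They were -3.70, -2.78, -2.28 and -1.96 within replicates 1 and 2. Prdm14 was 4.96 ± 0.48 in Ghigh cells, where 1 of 3 arrays was well above background, and differed by -2.68 ± 0.38 (adjusted p = 9.2e-06). Nanog was still at 12.58 ± 0.49 in G- cells and differed by -2.02 ± 0.48 (adjusted p = 0.0071) in Ghigh cells. That call was lost without d5 G- replicate 2 or 3 or without d5 Ghigh replicate 1 or 2, at differences from -2.07 to -1.75. Without d5 G- replicate 2 the count fell from 5 to 3, with Zfp42 lost as well, and with a fit to these 2 groups alone to 0. Klf5 differed by -1.34 ± 0.23 (adjusted p = 2.2e-04), under the size threshold. Nr0b1 pointed the other way in Ghigh cells, at 6.03, 6.29 and 5.48 in G- and 7.74, 7.84 and 8.01 in Ghigh cells, and its difference of 1.93 ± 0.65 (adjusted p = 0.087) was not called although the arrays did not overlap. Between Ghigh and Glow cells limma called 0 members (0.245% of all genes), with 2 members, Klf2 and Nr0b1, at an unadjusted p under 0.05.

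**Figure D2:**
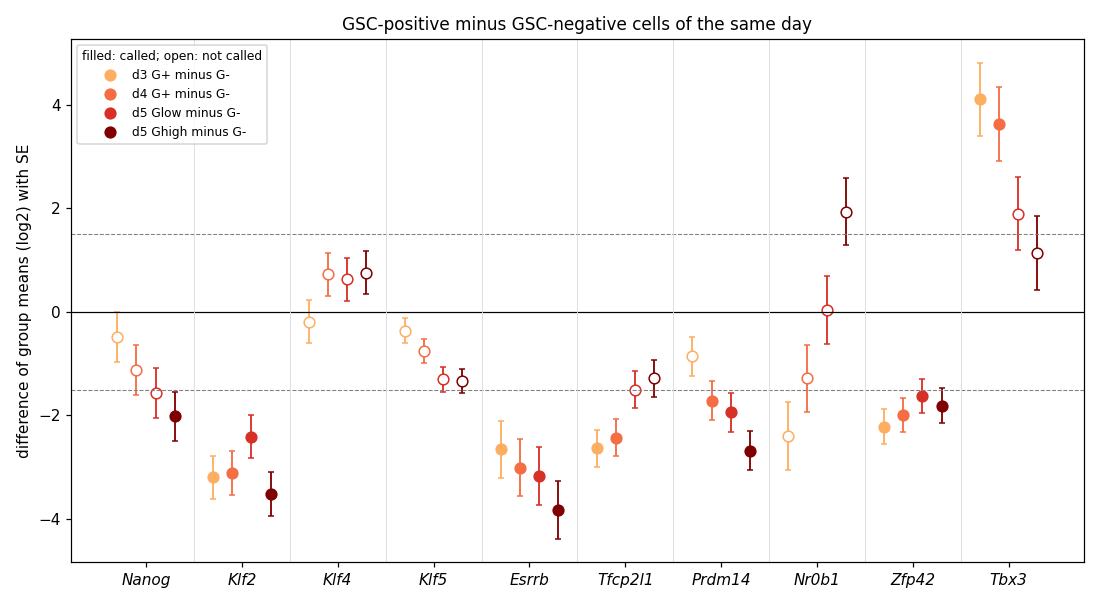
Log2 difference between GSC-positive and GSC-negative cells of the same day for each factor (y axis, point and SE from the limma fit; dashed lines at -1.5 and 1.5), with filled points for calls. Klf2, Esrrb and Zfp42 lie below -1.5 in all 4 comparisons, Klf4 stays between -0.19 and 0.75, and Tbx3 lies above 1.5 at d3, at d4 and in d5 Glow cells, where it is not called.

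Tbx3 ran against the rest of the set. It read 8.66 ± 0.42 at d2 and 10.86 ± 0.52 in ESCs, and the arrays were at 8.73, 8.03 and 7.50 in d3 G- cells but at 11.88, 12.39 and 12.30 in d3 G+ cells. This was 17.2-fold higher in G+ cells, at 4.10 ± 0.71 (adjusted p = 2.0e-04), and every G+ array was above every G- array. At d4 the difference was 3.62 ± 0.71 (adjusted p = 9.8e-04), with an adjusted p of 0.011 without d4 G+ replicate 1. In d4 G+ cells the level of 13.05 ± 0.30 was above that of ESCs on every array, with a difference of 2.19 ± 0.71 (adjusted p = 0.026) that was not called. At d5 the gates overlapped, since G- cells spread from 9.77 to 12.91, and the Ghigh to G- difference was 1.14 ± 0.71 (adjusted p = 0.50). It ranged from 0.31 without d5 G- replicate 3 to 2.18 without d5 Ghigh replicate 3, with no call. In Glow cells Tbx3 read 13.91, 13.51 and 12.51, higher than G- cells in 8 of 9 array pairs, and differed by 1.89 ± 0.71 (adjusted p = 0.25). Streak and mesoderm markers stood with Tbx3 on the G+ side: of 7, 4 were called higher in d3 G+ than in G- cells, led by Mesp1 (4.94) and Mixl1 (3.25), and their mean log2 intensity ranged 9.22 to 9.54 over d3 G- and 11.56 to 11.79 over d3 G+ arrays. Of 7 definitive endoderm markers 3 were called higher, Gata6 by 4.63 and Gata4 by 3.52 the most, and of 3 markers of ESCs and early epiblast 2 were called lower. Germ cell markers had 1 of 7 called lower (Dppa3, -2.60) and trophoblast markers 1 of 4 higher (Gata3, 2.51). Of 4 neural, 4 fibroblast, 7 visceral and parietal endoderm and 2 measured 2-cell-like markers 0 were called. The part of other cell types in the levels was not tested.

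The third pattern is a partial return of Tfcp2l1 and Nr0b1 in the sorted d6 populations. Against d5 Ghigh cells, d6 G+H- cells had Tfcp2l1 and Nr0b1 called higher (1.29% of all genes) and Tbx3 lower (0.726%). In d6 G+H+ cells Tfcp2l1 and Nr0b1 were called higher (2.56%) and Nanog and Tbx3 lower (1.33%). The median difference over the members was -0.0019 for G+H- and 0.46 for G+H+ cells, against -0.016 and -0.0093 over all genes. Both comparisons share the d5 Ghigh arrays. Between d4 G+ and d5 Ghigh cells limma had called 0 members (1.04% of all genes; 6 at an unadjusted p under 0.05), and between d4 G+ and d5 Glow cells also 0 (0.125%; 2).

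Nr0b1 made the widest turn of the set. Its arrays read 12.61, 12.00 and 13.06 in ESCs, fell to 5.95, 5.16 and 5.01 in d4 G+ cells, and stood at 6.09, 6.04 and 5.76 in d5 Glow and 7.74, 7.84 and 8.01 in d5 Ghigh cells. The d6 arrays were at 12.47, 11.55 and 10.04 for G+H- and 13.10, 12.30 and 10.35 for G+H+ cells. The lowest of these sorted d6 arrays was above the highest d5 array, and 2 of the 3 d6 G+H+ arrays lay within the range of the ESCs or above it. In the d6 Control cultures of the second series Nr0b1 read 8.40, 8.82 and 8.76, below every sorted d6 array. The rise from d5 Ghigh cells was 3.49 ± 0.65 (adjusted p = 5.4e-04) for G+H- and 4.05 ± 0.65 (adjusted p = 3.0e-05) for G+H+ cells, or 11.2-fold and 16.6-fold. Against ESCs the d6 G+H+ cells differed by -0.65 ± 0.65 (adjusted p = 0.64), with a 95% interval of -1.97 to 0.68, which reaches past the size threshold of 1.5. The earlier part of the turn, from d4 G+ to d5 Ghigh, was 2.49 ± 0.65 (adjusted p = 0.023) and was not called. Replicate 3 read more than 1 unit below the other arrays of both d6 groups, and within the slides of replicate 3 alone the rise was 2.03 and 2.34, against 4.22 and 4.91 within replicates 1 and 2.

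Tfcp2l1 rose from 5.43, 5.61 and 6.21 in d5 Ghigh cells to 7.86, 6.55 and 7.78 for d6 G+H- and 8.81, 7.72 and 8.19 for d6 G+H+ cells. The changes were 1.65 ± 0.35 (adjusted p = 0.0025) and 2.49 ± 0.35 (adjusted p = 4.8e-06). The change in G+H+ cells stayed called when any of the 6 arrays was left out, between 2.20 and 2.74. That in G+H- cells was lost without d5 Ghigh replicate 1 or 2 and without d6 G+H- replicate 1 or 3, at differences from 1.42 to 1.58, and also in the second Tfcp2l1 probe (1.28), with a normexp offset of 50 (1.16) or without background correction (1.31). Tfcp2l1 was still below ESCs in d6 G+H+ cells, with a difference of -3.65 ± 0.35 (adjusted p = 3.7e-10). That second probe gave group means with a correlation of 0.984 with those of the first over the 14 groups. Esrrb also read higher, at 8.95, 8.93 and 7.05 in d6 G+H+ beside 5.35, 6.72 and 6.90 in d5 Ghigh cells. Its difference of 1.99 ± 0.56 (adjusted p = 0.013) was not called. Within replicates 1 and 2 it was 2.90, called without replicate 3 (adjusted p = 1.5e-04), and on the slides of replicate 3 it was 0.15. Replicate numbers were taken to pair these groups too, although replicate 3 also had its own scan date. With the replicate as a block limma called Esrrb at an adjusted p of 0.0031 for G+H+ cells and 0.0049 for the G+H- gate. Klf5 differed by 1.02 ± 0.23 (adjusted p = 0.0022) in G+H+ cells, under the size threshold.

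Tbx3 fell at the same step in the sorted populations, while the d6 Control cultures of the second series read 13.71, 13.29 and 13.70. In d5 Ghigh cells Tbx3 was 13.78, 13.40 and 10.47, so replicate 3 was the lowest Ghigh array. The sorted d6 arrays read 8.74, 9.63 and 10.70 for G+H- and 8.99, 10.29 and 10.28 for G+H+ cells. The fitted differences of -2.87 ± 0.71 (adjusted p = 0.0086) and -2.70 ± 0.71 (adjusted p = 0.0075) rest on replicates 1 and 2, within which they were -4.41 and -3.95. Within the slides of replicate 3 they were 0.22 and -0.19, the first in the other direction. Nanog read 10.03, 10.66 and 10.99 in d5 Ghigh and 7.49, 8.08 and 10.25 in d6 G+H+ cells, with replicate 3 the highest array, and its difference was -1.95 ± 0.48 (adjusted p = 0.0041). Leaving out 1 array at a time ended that Nanog call in 4 of 6 fits, as did reading the second Nanog probe (-1.44), and that of Tbx3 in 4 of 6 fits for G+H- and 5 of 6 for G+H+ cells. Without d6 G+H- replicate 1 none of the 3 calls in G+H- cells held, and with a fit to the 2 groups alone 0 of 3 held for G+H- and 2 of 4 for G+H+ cells. Without replicate 3 of every group 5 members were called in each (Nanog, Esrrb, Tfcp2l1, Nr0b1 and Tbx3). Beside these changes, of 7 streak and mesoderm markers 4 were called lower in d6 G+H+ than in d5 Ghigh cells, Mesp1 by -5.49 and Hand1 by -4.12, and of 7 visceral and parietal endoderm markers 3 were called higher, Ttr by 3.13 and Apoa1 by 2.94. Of 4 fibroblast markers 2 were called lower and 1 higher, of 4 trophoblast markers 2 higher and 1 lower, and of 7 germ cell, 4 neural and 2 measured 2-cell-like markers 0 were called by limma.

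By d6 the set was split. Each of the G+H- and G+H+ populations had 8 members called lower than ESCs (4.83% and 5.03% of all genes; d5 Ghigh cells had 9, beside 4.29%), and Nr0b1 and Tbx3 were not. Klf2 was lowest relative to ESCs, at 5.67, 6.17 and 5.18 against 13.62, 13.14 and 14.22, a difference of -7.99 ± 0.42 (adjusted p = 1.6e-16). Nanog differed from ESCs by -5.85 ± 0.48 (adjusted p = 7.8e-12), and its second probe followed the first with r = 0.993 over the 14 groups, while another, dim probe with group means of 6.16 to 7.44 did not (r = -0.49). Prdm14 was well above background on 0 of 3 arrays of either d6 group, with measured means of 9.27 in ESCs and 4.49 in d6 G+H+ cells (adjusted p = 3.0e-12). Set against the dimmest probe that each array held above background, it was 26.9-fold lower there. That is no lower bound, since other processing choices gave differences from -7.64 to -3.42. The counts against ESCs share the ESC arrays.

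The H gates of d6 had no called member. By limma 0 of 10 were called between G+H+ and G+H- cells, as were 0% of all 23285 genes, and 2 members had an unadjusted p under 0.05. These were Zfp42, with a difference of 1.02 ± 0.34 (adjusted p = 0.68) and arrays at 8.10, 6.70 and 7.94 for G+H- and 8.78, 7.91 and 9.13 for G+H+ cells, and Tfcp2l1, with 0.84 ± 0.35 (adjusted p = 0.99). The 95% interval of Zfp42 was 0.34 to 1.71 and that of Nr0b1 -0.77 to 1.88.

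EPZ6438 was used to ask what PRC2 activity contributes before and during differentiation. At d6, ADE_EPZ cultures had Tfcp2l1 and Zfp42 called higher than Control (1.81% of all genes) and Tbx3 called lower (0.73%). The median over the members was 0.93, against -0.0064 over all genes. Tfcp2l1 read 7.25, 7.26 and 7.09 in Control and 9.86, 8.67 and 9.40 in ADE_EPZ cultures, a rise of 2.11 ± 0.35 (adjusted p = 1.0e-04). Tbx3 read 13.71, 13.29 and 13.70 in Control and 10.61, 10.89 and 9.17 in ADE_EPZ cultures, 10.1-fold lower at -3.34 ± 0.71 (adjusted p = 0.0014). On each of the 3 slides, which held 1 array of every regimen, Tbx3 fell by at least 2.82. Zfp42 was 7.87 ± 0.37 in Control and 9.38 ± 0.31 in ADE_EPZ cultures, and its difference of 1.51 ± 0.34 (adjusted p = 0.0023) lay at the size threshold. The Zfp42 call was lost without Control replicate 1 or 2 and without ADE_EPZ replicate 2 or 3, at differences from 1.33 to 1.49, and also with a normexp offset of 50 (1.36) or without background correction (1.43). That of Tbx3 was lost without ADE_EPZ replicate 3 (-2.81), which left 1 of the 3 calls.

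Other members read higher in ADE_EPZ cultures without passing the thresholds. Esrrb was at 7.61 ± 0.41 in Control cultures and read 8.80, 9.29 and 9.50 in ADE_EPZ cultures, and the groups did not overlap, with a difference of 1.59 ± 0.56 (adjusted p = 0.065). For Nr0b1 it was 1.69 ± 0.65 (adjusted p = 0.10), and the ADE_EPZ arrays spread from 9.02 to 11.91. Klf5 differed by 1.10 ± 0.23 (adjusted p = 0.0014), past the p threshold but under the size threshold. Klf4 and Nanog differed by -0.79 ± 0.41 and 0.39 ± 0.48, with adjusted p = 0.29 and 0.78.

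With EPZ6438 before differentiation 0 members were called by limma (0.391% of all genes; 5 members had an unadjusted p under 0.05). Nr0b1 read 8.40, 8.82 and 8.76 in Control and 10.80, 9.58 and 13.14 in ES_EPZ cultures, which did not overlap, and differed by 2.51 ± 0.65 (adjusted p = 0.035). Nr0b1 was called with slide as a random block (limma adjusted p = 0.0085) or the replicate as a block (0.0051), but not with slide as a fixed block (0.074). The difference was 3.31, and called, without ES_EPZ replicate 2 and 1.53 without ES_EPZ replicate 3 (adjusted p = 0.45). Tbx3 was at 11.84, 12.27 and 9.63 in ES_EPZ cultures, below every Control array, and differed by -2.32 ± 0.71 (adjusted p = 0.084). Tfcp2l1 was 8.13 ± 0.04, a difference of 0.93 ± 0.35 (adjusted p = 0.21). ADE_EPZ and ES_EPZ share the Control arrays. Between them, limma called 0 members (0.12% of all genes; 3 members with an unadjusted p under 0.05), and Tfcp2l1 differed by 1.18 ± 0.35, with a 95% interval of 0.46 to 1.91. Beside these changes the mean log2 intensity of 7 definitive endoderm markers was 11.42 to 11.79 over Control, 12.30 to 12.73 over ADE_EPZ and 12.03 to 12.48 over ES_EPZ arrays, and Hhex was called higher in ADE_EPZ cultures by 2.23. That of 7 streak and mesoderm markers was 9.42 to 9.57, 8.20 to 8.66 and 8.37 to 9.23, and Mixl1 was called lower in both regimens. Over Control and ADE_EPZ arrays, 4 trophoblast markers averaged 7.76 to 8.41 and 9.21 to 9.64, and 7 germ cell markers 7.03 to 7.42 and 7.75 to 7.86. Visceral and parietal endoderm markers averaged 9.48 to 9.71 and 9.82 to 10.19, and core pluripotency genes 10.40 to 10.44 and 10.49 to 10.91. For markers of ESCs and early epiblast, neural, fibroblast and 2-cell-like cells these ranges overlapped. Of the LIF pathway genes 2 of 8 were called lower in ADE_EPZ cultures, Pim1 by -2.09 and Lifr by -1.59. The part of cell composition in the levels of these cultures was not tested.

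**Figure D3:**
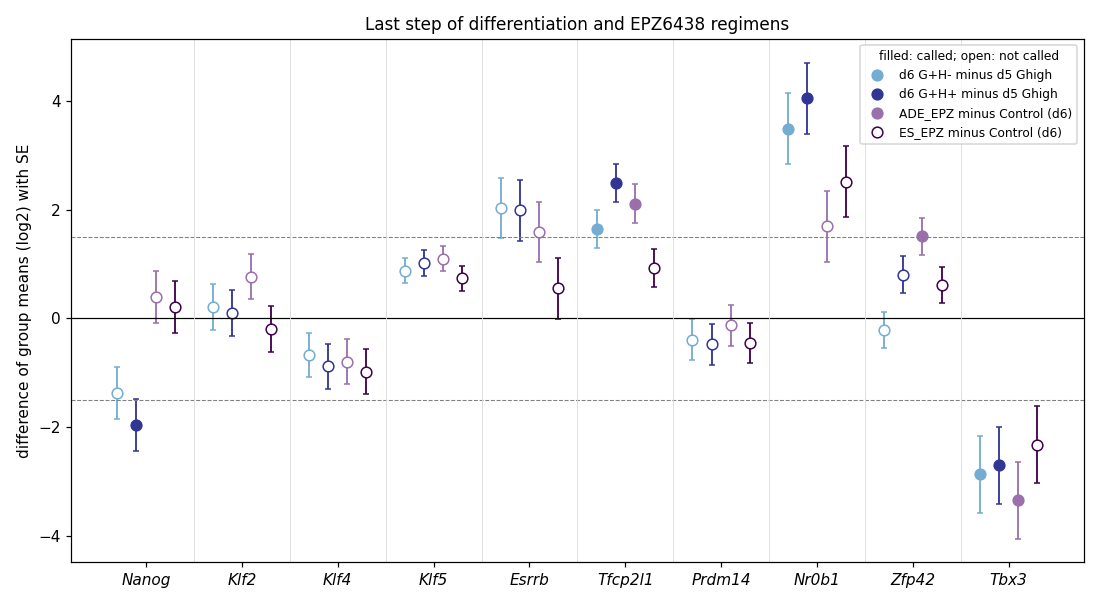
Log2 difference of each factor (y axis, point and SE from the limma fit; dashed lines at -1.5 and 1.5; filled points are calls) from d5 Ghigh to the d6 populations and from Control to the EPZ6438 regimens. Nr0b1 lies between 1.69 and 4.05 and Tbx3 between -3.34 and -2.32 in all 4 comparisons, while Nanog is below 0 in the d6 populations and above 0 in the EPZ6438 regimens.

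Across the 14 group means the members fell into unlike profiles. Correlations here describe 14 means that share a normalisation and carry no test. The means of Control, ADE_EPZ and ES_EPZ come from the second series, so differences of slide, scan date and protocol enter them. Klf2, Zfp42 and Esrrb ran closest together, with r = 0.97 for Klf2 and Zfp42 and 0.95 for Esrrb and Zfp42. Prdm14 joined them (r = 0.93 with Klf2). Nr0b1 was near 0 with Prdm14 (-0.02) and below it with Nanog (-0.34), but reached 0.74 with Tfcp2l1. Tbx3 was negative with every member except Klf4 (0.21), down to -0.61 with Tfcp2l1.

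**Figure D4:**
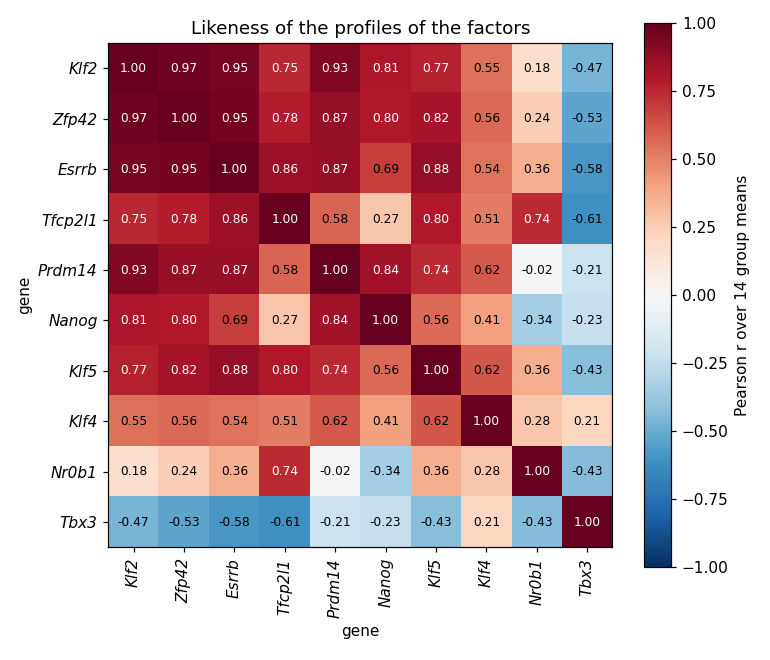
Pearson correlation between the profiles of each pair of factors over the 14 group means (colour and number, from -1 in blue to 1 in red; genes on both axes). Klf2, Zfp42, Esrrb and Prdm14 form a block with rounded r from 0.87 to 0.97, and Nr0b1 and Tbx3 stand apart from it. Outside the block Klf5 also reaches 0.88 with Esrrb.

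Among 1572 other genes with a range of group means of at least 3 and at least 3 arrays above background, the profiles most like that of Nanog were those of Pou5f1-rs4 (r = 0.985) and Pou5f1 (r = 0.983), which are near copies of each other that the probes may not tell apart. For Klf2 they were Tcl1 (r = 0.989) and Morc1 (r = 0.986), and for Zfp42 Triml1 (r = 0.988) and Triml2 (r = 0.985). Triml1 and Triml2 lie beside Zfp42 on chromosome 8. Those most like Nr0b1 were Eras (r = 0.948) and Mreg (r = 0.948), and those most like Tbx3 Frmd4a (r = 0.904) and Slc24a3 (r = 0.900). For Esrrb they were Naprt (r = 0.971) and Cpt1a (r = 0.965), for Tfcp2l1 Fam25c (r = 0.960), and for Prdm14 Misp3 (r = 0.967) and Abcb4 (r = 0.966). The closest genes to Klf4, Mras (r = 0.918) and Nkx6-3 (r = 0.893), and to Klf5, Rasgef1a (r = 0.969) and Msln (r = 0.917), were not members.

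The pathway lists and relatives of the members gave further values. Of 14 other Klf genes 0 were called at d2 against ESCs by limma, with a median difference of -0.63, and in d6 G+H+ cells 4 were called lower, led by Klf15 (-1.98) and Klf9 (-1.84). Of 16 genes related to Tfcp2l1, Esrrb, Prdm14, Nr0b1 and Tbx3, 4 were called lower in d3 G+ than in G- cells and 0 higher. They were led by Nr5a2 (-2.93), an orphan nuclear receptor that can drive Pou5f1, and Grhl2 (-2.60), an epithelial grainyhead factor. Grhl2 was called higher in d6 G+H+ than in d5 Ghigh cells (2.31) and in ADE_EPZ than in Control cultures (2.14), as its relative Tfcp2l1 was in both, and Tbx5 was called lower in both (-2.55 and -2.46). Of the core pluripotency genes 3 of 10 were called lower in d3 G+ than in G- cells (Tcl1 by -3.49 and Utf1 by -3.28 the most), and 4 of 10 in d6 G+H+ cells than in ESCs, Tcl1 by -8.59 and Sox2 by -6.73. The median of that list was -0.96 in d6 G+H+ cells, beside -4.61 for the naive factors and 0.0006 for all genes. Formative and primed genes went both ways by d6, with 5 of 10 called higher, Fgf5 by 6.65 and Otx2 by 4.97, and 3 lower, Pou3f1 by -4.38 and Foxd3 by -3.95.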

How the data were processed

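Total RNA was hybridised to 42 Agilent one-colour mouse arrays. The deposited scanner files hold a median and a background intensity per spot, and per the study's methods the authors corrected the background by normexp (offset 10) before quantile normalisation of the arrays, so that the deposited value table holds log2 intensities. limma is also named in the submitters' processing notes, with no version. Deposited columns were mapped to samples by name, and log2 values recomputed from the scanner files correlated with them at 0.999989 or more.

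Of 62976 spots per array 59305 were not controls, and values were averaged per probe over spots without an outlier mark, which gave 55681 probes and left 146 probe values missing. No spot was saturated, and each array had between 24504 and 40428 probes well above background. The number of arrays limits the precision. Groups came from the sample labels. One limma fit (limma 3.58.1, statmod 1.5.0, R 4.3.3) with 14 group means gave 29 comparisons. Benjamini-Hochberg adjustment used every probe within a comparison, and the brightest probe stood for a gene (23285 genes). The thresholds and the lack of covariates follow the study's methods. An exact permutation test of 3 against 3 arrays cannot go below 0.1 and was not used. The study describes its replicates as independent experiments, and p-values measure the spread between them.

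Same-numbered arrays deviated together, with every correlation of deviations over 0.1, for d3 G+ and G- (0.25 to 0.68), d4 G+ and G- (0.21 to 0.47), d3 G+ and d2 (0.16 to 0.54), d6 G+H- and G+H+ (0.35 to 0.65), d5 Ghigh and each d6 population (0.13 to 0.36), and ADE_EPZ and ES_EPZ (0.22 to 0.30), so the numbers were taken to pair these arrays. For d3 G+ and d2, and for d6 G+H+ and d5 Ghigh, not every array correlated best with its own number. Replicate 3 of the untreated series also had its own scan date, and for it pairing and scan date cannot be told apart. The lists, the members and the comparisons were chosen with earlier results of these data known. Named were all members, the 2 most changed called genes per direction of a pathway or marker list, the 2 genes most like a member in profile, and Gsc, Hhex and Pou5f1. One gene under this rule is not reported here. The fit was tested on simulated data, and no result of that test is given. Alternatives changed the background correction, normalisation, spread estimate, arrays in the fit, probe choice, filter, threshold, slide, replicate block and single arrays. Leaving out replicate 3 of every untreated group, and all alternatives for d3 G+ against d2 and d6 against d5 Ghigh, were added after seeing the data. Promoters were matched by symbol.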

Additional observations from a re-analysis of the deposited data

How the results depend on the processing

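Alternatives left 232 counts of called members within 1.5 times the reported count and moved 17. Of the members' differences, 1255 kept their direction and side of the thresholds, 76 lost and 23 gained a call, and 0 changed sign. With 75th percentile scaling the count at d2 against ESCs fell from 8 to 5, and that scaling shifted the median of all probes by 0.18 between the d3 gates. With a fit to the compared groups alone, 0 members were called for d5 Ghigh against G-, 0 for d6 G+H- against d5 Ghigh and 2 for d6 G+H+ against d5 Ghigh cells. Without replicate 3 of every untreated group, 5 were called for d6 G+H- against d5 Ghigh cells. For ES_EPZ against Control, 1 member (Nr0b1) was called at an adjusted p of 0.05, with slide as a random block, and with the replicate block (adjusted p = 0.0051), where the arrays share only a number. Leaving out 1 array at a time gave 7 to 7 calls for d2 against ESCs, 6 to 6 for d3 G+ against d2, 4 to 5 and 4 to 6 for the d3 and d4 gates, 3 to 5 for d5 Ghigh against G-, 0 to 3 and 2 to 4 for d6 G+H- and G+H+ against d5 Ghigh, 8 to 8 for d6 G+H+ against ESCs, 0 to 0 for d6 G+H+ against G+H-, 1 to 3 for ADE_EPZ against Control, 0 to 1 for ES_EPZ against Control and 0 to 0 for ADE_EPZ against ES_EPZ. Beyond the values given beside the results, the replicate block changed no other member's call. Apart from the alternative's own construction (fewer arrays), the cause was not tested. Prdm14 in d6 G+H- and G+H+ cells is limited by background. In d5 Ghigh cells 1 of 3 Prdm14 arrays was well above it. Over the alternatives the Prdm14 difference between d5 Ghigh and G- cells ranged from -4.34 to -1.79 (limma adjusted p up to 0.067). Klf2 in d6 G+H- cells and Tfcp2l1 in d4 G+ and d5 Glow cells were well above background on 2 of 3 arrays. The Klf2 difference between d6 G+H+ cells and ESCs ranged from -8.84 to -7.16.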
